A study of Sus scrofa with 6 samples.

Results

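The 9 genes described here, SREBF1, SREBF2, SCAP, INSIG1, INSIG2, NPC1, NPC2, ABCA1 and STARD4, encode the sterol-sensing SREBP system of the cell and proteins that move cholesterol out of lysosomes, through the cytosol and across the plasma membrane. They were taken by gene name from the deposited table, where all 9 were listed among 31908 pig gene IDs, and a gene's value is the sum over its listed transcripts. The RNA came from IPEC-J2 cells, an epithelial line from pig small intestine, in 6 libraries. In the control group (CON, 3 libraries), cells were given PBS, and in the CDCA group (3 libraries) they were given 50 μM chenodeoxycholic acid (CDCA), a primary bile acid made from cholesterol in the liver. Both groups were kept for 24 h and carried no genetic change. The study calls the libraries of a group biological replicates, without saying in the sources used here whether each came from a separate culture, so p-values measure the spread between these libraries, which may be technical.

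SREBPs are transcription factors made as precursors in the endoplasmic reticulum membrane, bound to the escort protein SCAP. When the membrane is rich in sterol, an INSIG protein holds the SCAP complex there, and when sterol is low, SCAP carries the precursor to the Golgi, where proteases release the active factor. SREBF1 encodes the factors that mainly drive fatty acid genes and SREBF2 the factor that mainly drives cholesterol synthesis and uptake genes. Cholesterol from endocytosed lipoproteins is handed from NPC2, a soluble protein of the lysosome, to NPC1 in the lysosomal membrane, which passes it on. STARD4 carries sterol through the cytosol, and ABCA1, whose gene is switched on by the oxysterol receptors LXR, passes cholesterol from the plasma membrane to apolipoprotein acceptors.

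The values are TPM (transcripts of a kind per 1000000 transcripts), a measure that takes transcript length into account, so levels of different genes can be compared. The authors made them with RSEM. The study reports the read totals of the libraries, but TPM keeps no read numbers, so the reads behind a single value are unknown. The listed TPM added up to 351770 to 366073 per library, not to 1000000, and a gene's value can miss transcripts that are not in the table. The 13 mRNAs encoded by mitochondrial DNA (mtDNA) took up 14.3% ± 0.64 of the listed TPM in the CON group and 3.20% ± 0.28 in the CDCA group (SD, n = 3 each). They held 49478 to 55015 TPM in the CON group and 10529 to 12288 TPM in the CDCA group. The changes below were also computed with totals without these mRNAs, meaning the sum of all other listed TPM. Since the listed TPM are only a part of a library, a smaller correction, with totals of 1000000 less these mRNAs, was added after the data were seen. The epithelial markers KRT8 (190 to 238 TPM) and EPCAM (118 to 173 TPM) were high in every library, whereas CDH1 (0.31 to 0.58 TPM), VIL1 (0 to 0.64 TPM) and OCLN (0 to 0.22 TPM) were listed near 0. The sum over the 9 listed epithelial markers was 726 to 747 TPM in the CON group and 1256 to 1398 TPM in the CDCA group, where 4 of the 6 tested rose (EPCAM, KRT18, TJP1 and CLDN4) and KRT7 fell. The higher sum came from CLDN4, a tight junction protein picked here after its values were seen, which was at 215 to 237 TPM in the CON group and 765 to 863 TPM in the CDCA group. The other 8 markers summed to 508 to 524 TPM in the CON group and 491 to 536 TPM in the CDCA group. The part of these markers in the results below was not tested. None of 8 fibroblast markers reached a mean of 1 TPM, and their sum was 1.40 to 1.97 TPM in the CON group, against 1.16 to 1.27 TPM in the CDCA group. The 8 immune markers summed to 20.4 to 22.2 TPM in the CON group, against 23.5 to 26.0 TPM in the CDCA group, with LYZ (15.8 to 19.9 TPM) holding most and the leukocyte marker PTPRC at 0 to 0.01 TPM. Within that list CD68, a lysosomal glycoprotein picked here after its values were seen, was at 0 to 0.26 TPM in the CON group and at 4.44 to 5.33 TPM in the CDCA group, and its part in the results below was not tested.

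CDCA treatment was accompanied by small shifts in both directions among these genes. INSIG2, NPC1, ABCA1 and NPC2 rose and SREBF1 fell, while INSIG1 and SCAP had lower means in CDCA without passing the test. Differences were tested by limma on log2(TPM + 1) over all 8708 genes whose mean was 1 TPM or more, two-sided, with Benjamini-Hochberg adjustment (FDR), and a gene was said to rise or fall where the FDR was under 0.05. Of the 9 genes, 7 passed the filter on low values, and SREBF2 and STARD4 did not. The 4 rises compare with 29.3% of all tested genes called higher, and the 1 fall with 23.9% called lower. None of the 7 reached a log2 change of 1 in size together with an FDR under 0.05, a limit passed by 7.42% of all tested genes. The libraries of the groups did not overlap for 6 of the 7 genes, against 61.5% of all tested genes. The median log2 change of the 7 was 0.18, beside 0.05 over all tested genes. When the mtDNA-encoded mRNAs were left out of the totals, the median of all tested genes moved to -0.08, with 1750 genes called higher and 2781 lower, against 2550 and 2085 with TPM as deposited. Of the 4 rises, only that of NPC2 was then lost (log2 change 0.03, limma FDR 0.60). With totals of 1000000 less these mRNAs, 2230 genes were called higher and 2370 lower, and the change of NPC2 was 0.12 (limma FDR 0.097). In bulk RNA, fewer cells of a kind and less RNA per cell cannot be told apart.

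**Figure D1:**
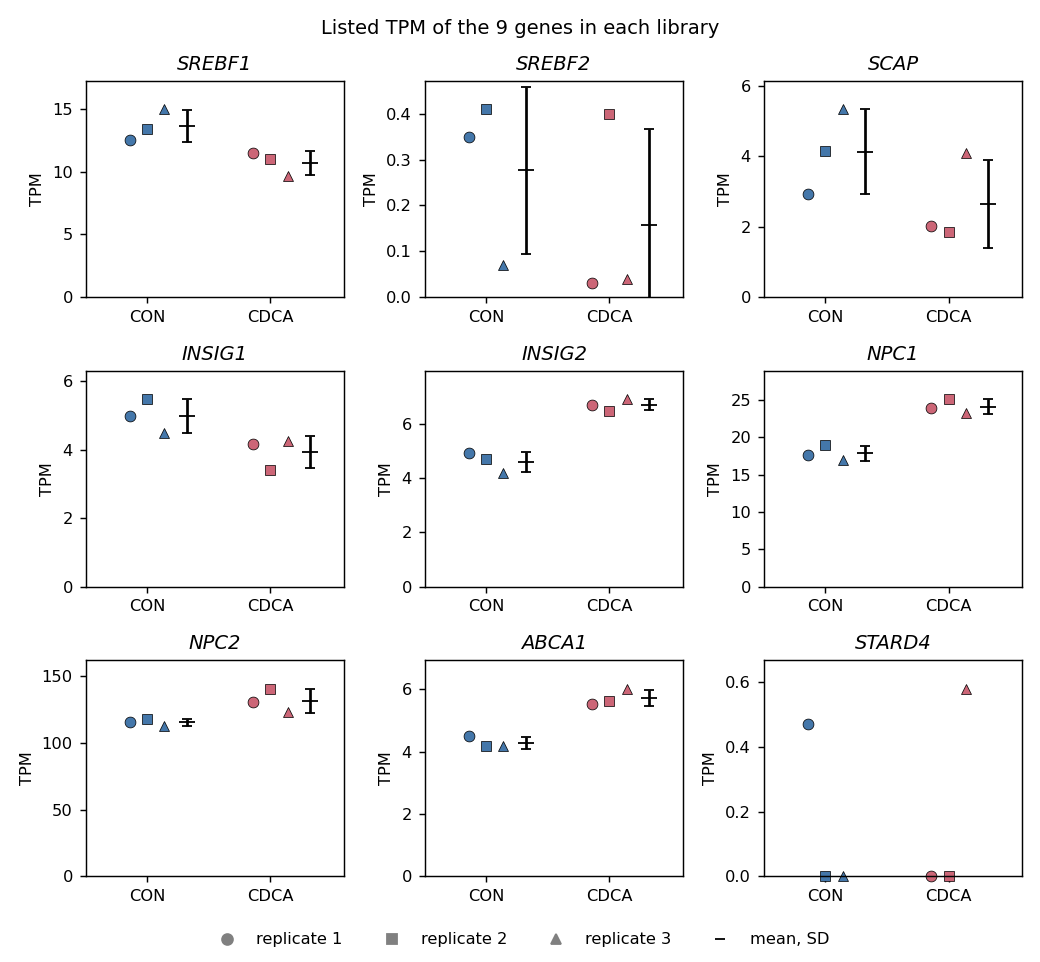
Listed TPM of each of the 9 genes (vertical axes in TPM, each from 0) in the 3 CON (blue) and 3 CDCA (red) libraries. Markers show the replicate number, which is not known to pair the groups. Bars show mean and SD, left out for STARD4 and ended at 0 for SREBF2. The libraries of INSIG2, NPC1, NPC2 and ABCA1 lie higher in CDCA than in CON without overlap, those of SREBF1 and INSIG1 lie lower, and those of SCAP, SREBF2 and STARD4 overlap.

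**Figure D2:**
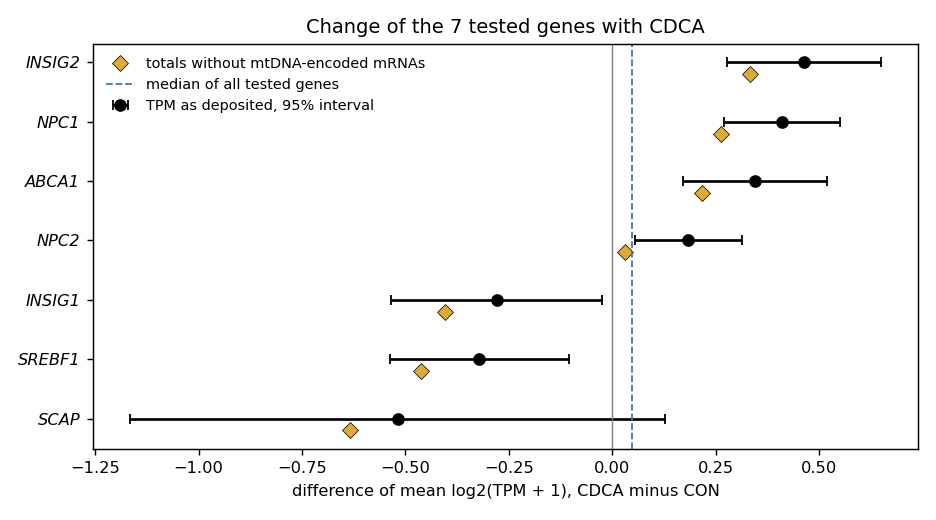
Difference of mean log2(TPM + 1), CDCA minus CON, for the 7 tested genes, with 95% confidence intervals by limma (black) and the same difference with listed totals that leave out the mtDNA-encoded mRNAs (yellow diamonds). The dashed line is the median of all tested genes with TPM as deposited, 0.05; INSIG2 is highest at 0.46 and SCAP lowest at -0.52 with the widest interval.

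Of the SREBP genes, SREBF1 fell. It was listed at 12.5, 13.4 and 15.0 TPM in the CON group, against 11.5, 11.0 and 9.65 TPM in the CDCA group. No CDCA library reached the level of a CON library, but the nearest libraries of the groups were 1 TPM apart. The mean went from 13.6 ± 1.3 to 10.7 ± 0.95 TPM (SD, n = 3 each), a ratio of 0.786. The log2 change was -0.32 (SE 0.09, limma FDR 0.023), and -0.46 (limma FDR 0.0058) with totals without the mtDNA-encoded mRNAs. Leaving out 1 library at a time gave changes from -0.38 to -0.25. The FDR was over 0.05 in 3 of these 6 fits, those without CON replicate 2 (0.057), CON replicate 3 (0.062) and CDCA replicate 3 (0.064). It was also over 0.05 with no filter on low values (limma FDR 0.053) and with the replicate number added to the fit (limma FDR 0.065). SREBF1 had 1 listed transcript, so its long and short protein forms, which differ in their first exon, cannot be told apart in these values.

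SREBF2 was listed near 0 in all libraries, at 0.35, 0.41 and 0.07 TPM in the CON group, against 0.03, 0.40 and 0.04 TPM in the CDCA group. The groups overlapped, with 1 low library in the CON group and 1 high library in the CDCA group. Its 4 listed transcripts did not add up in the same way in the groups: the transcript with the highest mean held 0.28, 0.30 and 0 TPM in the CON group, against 0, 0.06 and 0 TPM in the CDCA group, while the 0.40 TPM of CDCA replicate 2 came mostly from another transcript, at 0.28 TPM there and at 0 in the other 5 libraries. SREBF2 was not tested, and a fit without the filter gave a log2 change of -0.15 (95% interval -0.53 to 0.24, limma FDR 0.59). The ratio of SREBF2 to SREBF1 within a library spanned 0.00467 to 0.0305 in the CON group, against 0.00261 to 0.0364 in the CDCA group, and did not separate the groups (exact two-sided permutation test, p = 0.6, adjusted p = 0.6 over the 4 ratios tested).

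SCAP, the escort of the SREBPs, was listed at 2.92, 4.15 and 5.34 TPM in the CON group, against 2.01, 1.84 and 4.09 TPM in the CDCA group. CDCA replicate 3 lay within the range of CON, and the other CDCA libraries lay below it. Compared with a CON mean of 4.14 ± 1.2 TPM, the CDCA mean was 2.65 ± 1.3 TPM (SD, n = 3 each), with a log2 change of -0.52 (SE 0.27, 95% interval -1.17 to 0.13, limma FDR 0.15). This was the largest change in size among the 7 tested genes and also the one with the widest interval, and it moved with single libraries. Of the 6 fits that left out a library, 1 passed, that without CDCA replicate 3 (-0.79, limma FDR 0.028). The change was smallest without CON replicate 3 (-0.35, limma FDR 0.36), CDCA replicate 2 (-0.36, limma FDR 0.35) and CDCA replicate 1 (-0.41, limma FDR 0.32). The first of the 5 listed SCAP transcripts held 97.8% of its TPM in the CON group, against 97.6% in CDCA.

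The paralogs INSIG1 and INSIG2, the proteins that hold SCAP in the endoplasmic reticulum, had close levels in CON and different ones in CDCA. INSIG2 was listed at 4.92, 4.69 and 4.18 TPM in the CON group, against 6.71, 6.49 and 6.92 TPM in the CDCA group, and its groups were well separated. It rose from 4.60 ± 0.38 to 6.71 ± 0.22 TPM (SD, n = 3 each), a ratio of 1.46 and a log2 change of 0.46 (SE 0.08, limma FDR 0.0027), the largest rise of the 7 genes. INSIG1, itself a target of the SREBPs, was listed at 4.98, 5.49 and 4.49 TPM in the CON group, against 4.16, 3.40 and 4.25 TPM in the CDCA group. These libraries did not overlap either, but the gap between CDCA replicate 3 and CON replicate 3 was small. The INSIG1 mean was 3.94 ± 0.47 TPM, compared with 4.99 ± 0.50 TPM in the CON group (SD, n = 3 each), with a log2 change of -0.28 (SE 0.11, 95% interval -0.53 to -0.02, limma FDR 0.064). The FDR was under 0.05 in several other settings, among them totals without the mtDNA-encoded mRNAs (-0.40, limma FDR 0.021) and its highest transcript alone (-0.28, limma FDR 0.025). It was over 0.05 in all 6 fits that left out a library, with changes from -0.34 to -0.20 (limma FDR 0.055 to 0.18), and with no filter (limma FDR 0.13). That transcript was steady within the groups, at 4.24, 4.37 and 4.36 TPM in the CON group, against 3.56, 3.24 and 3.36 TPM in the CDCA group. The second INSIG1 transcript varied from 0.13 to 0.96 TPM in CON and from 0.16 to 0.89 TPM in the CDCA group and carried most of the spread of the sum.

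A ratio of 2 genes within a library does not depend on how that library was scaled. INSIG1 to INSIG2 was 1.01, 1.17 and 1.07 in the CON group, against 0.620, 0.524 and 0.614 in the CDCA group. All CDCA values were below all CON values, and the mean log2 ratio differed by -0.89, or 0.539-fold (exact two-sided permutation test, p = 0.1, which is as low as this test can go with 3 against 3 libraries; adjusted p = 0.2 over the 4 ratios). This floor is that of the permutation test. The sum of INSIG1 and INSIG2 over SCAP was 3.39, 2.45 and 1.62 in the CON group, against 5.41, 5.38 and 2.73 in the CDCA group. Here the groups overlapped through CDCA replicate 3, and the log2 difference of 0.85 had p = 0.2 by the same exact permutation test (adjusted p = 0.27).

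**Figure D3:**
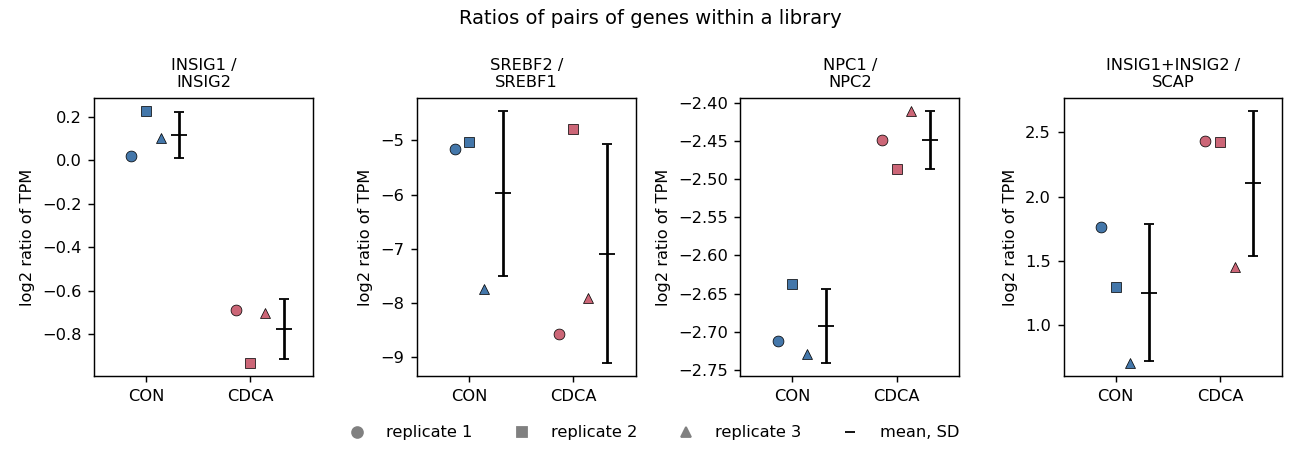
Log2 ratio of TPM for 4 pairs (vertical axes, on different scales and not from 0) in each CON (blue) and CDCA (red) library, with mean and SD. INSIG1 to INSIG2 is near 0 in CON and between -0.93 and -0.69 in the CDCA group, NPC1 to NPC2 is higher in every CDCA library, and the other pairs overlap.

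NPC1 and NPC2, the partners that release cholesterol from the lysosome, rose to different degrees. NPC1 was listed at 17.7, 19.0 and 17.0 TPM in the CON group, against 23.9, 25.1 and 23.2 TPM in the CDCA group, and all CDCA libraries lay over 4 TPM above the highest CON library. The mean went from 17.9 ± 1.0 to 24.1 ± 0.97 TPM (SD, n = 3 each), a ratio of 1.35 and a log2 change of 0.41 (SE 0.06, limma FDR 0.0014). NPC1 had 2 listed transcripts of nearly equal level, the first at 50.8% of its TPM in the CON group, against 52.4% in CDCA. Each of them rose by itself, the first from a mean of 9.08 to 12.6 TPM (log2 change 0.44, limma FDR 0.012 over all transcripts) and the second from 8.81 to 11.5 TPM (0.34, limma FDR 0.014). Loss of NPC1 function is the main cause of Niemann-Pick disease type C, in which cholesterol stays in lysosomes.

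NPC2 was by far the most abundant of the 9 genes, at 116, 118 and 113 TPM in the CON group, against 131, 141 and 123 TPM in the CDCA group. The groups did not overlap, and CDCA replicate 2 was the highest library. NPC2 rose from 116 ± 2.7 to 132 ± 8.8 TPM (SD, n = 3 each), a ratio of 1.14 and a log2 change of 0.18 (SE 0.05, limma FDR 0.027). Beside the loss of this call without the mtDNA-encoded mRNAs, leaving out 1 library took the FDR over 0.05 (0.053 to 0.074) in 5 of 6 cases, all but the one without CDCA replicate 3. Of its 3 listed transcripts, the smaller ones were above 0 in CON replicate 3 alone, at 2.70 and 0.35 TPM. Relative to NPC2, NPC1 was higher in CDCA: the ratio of NPC1 to NPC2 was 0.153, 0.161 and 0.151 in the CON group, against 0.183, 0.178 and 0.188 in the CDCA group, a log2 difference of 0.24 with no overlap (exact two-sided permutation test, p = 0.1, the smallest possible; adjusted p = 0.2).

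ABCA1, the cholesterol exporter, was listed at 4.52, 4.18 and 4.18 TPM in the CON group, against 5.52, 5.63 and 6.03 TPM in the CDCA group. The spread within the groups was small and the groups stood 1 TPM apart. It rose from 4.29 ± 0.20 to 5.73 ± 0.27 TPM (SD, n = 3 each), a ratio of 1.33 and a log2 change of 0.35 (SE 0.07, limma FDR 0.0071), from 1 listed transcript. With totals without the mtDNA-encoded mRNAs the change was 0.22 (limma FDR 0.047). The rises of ABCA1, INSIG2 and NPC1 each kept an FDR under 0.05 in all of the alternative settings run. STARD4, the cytosolic sterol carrier, was listed at 0.47, 0 and 0 TPM in the CON group, against 0, 0 and 0.58 TPM in the CDCA group, from 1 of its 4 listed transcripts, the other 3 being at 0 throughout. It was not tested, and a fit without the filter gave a log2 change of 0.03 (95% interval -0.53 to 0.60, limma FDR 0.94).

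By mean TPM, the order of the genes in CON was NPC2, NPC1, SREBF1, INSIG1, INSIG2, ABCA1, SCAP, SREBF2 and STARD4. The 4 genes from INSIG1 to SCAP had means between 4.14 and 4.99 TPM, and the library ranges of each neighbouring pair among them overlapped, as did those of SREBF2 and STARD4. In CDCA, the order became NPC2, NPC1, SREBF1, INSIG2, ABCA1, INSIG1, SCAP, STARD4 and SREBF2. INSIG2 and ABCA1 now stood apart from each other and ABCA1 from INSIG1 by range, while INSIG1 and SCAP, and STARD4 and SREBF2, still overlapped.

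Other genes of the same pathways were taken as 6 lists, and the share of each list that rose or fell is set beside the 29.3% higher and 23.9% lower of all tested genes. Among 10 tested genes of the machinery that activates or degrades this system, 5 rose (50%) and 2 fell (20%), with a median log2 change of 0.17. The rises were 3 without the mtDNA-encoded mRNAs, with median-ratio scaling, with no filter and without CON or CDCA replicate 3, and the falls were 1 in several settings, among them fits without CON replicate 2 or 3 or CDCA replicate 2 or 3. RNF139, a ubiquitin ligase of the endoplasmic reticulum, had a log2 change of 0.19 (limma FDR 0.034), but of 0.05 (limma FDR 0.53) without the mtDNA-encoded mRNAs and 0.08 (limma FDR 0.50) with its highest transcript, and it passed in only 1 of the 6 fits that left out a library, that without CON replicate 1. RNF145, a sterol-responsive ligase, had the largest fall (-0.64, limma FDR 0.023), which did not pass with no filter (limma FDR 0.059) or without CON replicate 2 or 3 or CDCA replicate 2 or 3 (limma FDR 0.058 to 0.069). MBTPS1, one of the Golgi proteases that cleave SREBPs, had a mean of 0.53 TPM and was not tested. MBTPS2, the other, was on the list, but no gene ID carried its symbol, so it was not analysed. Of the 14 genes on this list, 11 were found by symbol, and of the 90 on the 6 lists together, 85 were.

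Of 17 tested cholesterol synthesis enzymes, the main targets of SREBF2, 11 fell (64.7%) and none rose, with a median of -0.78. HMGCS1 fell from 38.9 ± 3.4 to 16.9 ± 1.3 TPM (SD, n = 3 each, log2 change -1.16, limma FDR 6.2e-05) and SQLE, squalene epoxidase, from 16.0 ± 4.1 to 8.58 ± 1.7 TPM (limma FDR 0.016, and 0.052 without CON replicate 1). Of 9 tested genes of fatty acid synthesis and desaturation, the pathway of SREBF1, 2 rose (22.2%) and 5 fell (55.6%), with a median of -0.27. FASN, fatty acid synthase, fell by 0.73 (limma FDR 0.024), but did not pass with its highest transcript (limma FDR 0.095), with no filter, or without CON replicate 2 or 3 or CDCA replicate 3. SCD, a desaturase, rose by 0.50 (limma FDR 0.029), but did not pass without the mtDNA-encoded mRNAs (0.39, limma FDR 0.074), with no filter, or without CON replicate 3 or CDCA replicate 1 or 3, which leaves 1 rise in the list. ACACA was at 2.67 ± 1.2 TPM in the CON group, against 4.06 ± 0.79 TPM in the CDCA group (SD, n = 3 each, limma FDR 0.15). The extremes of this list were ELOVL6 (-1.27) and ME1 (0.59).

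Of 6 tested uptake genes, 3 rose (50%) and none fell, with a median of 0.11, but 1 rose without the mtDNA-encoded mRNAs and 1 fell without CON replicate 3. SCARB1, a receptor for high-density lipoprotein, had the largest rise of the list (0.56, limma FDR 0.0039), which did not pass with its highest transcript (0.25, limma FDR 0.14). MYLIP, a ligase that degrades lipoprotein receptors, was at 1.01 and 1.12 TPM, and LIPA, the lysosomal lipase that frees cholesterol from its esters, at 2.92 and 2.19 TPM in CON and CDCA, and neither passed the test. Of 16 tested genes of sterol transport and storage inside the cell, 5 rose (31.2%) and 4 fell (25%), shares near those of all tested genes, with a median of 0.08, and 2 fell without CON replicate 3. SOAT1, which esterifies cholesterol for storage, had the largest fall (-0.97, limma FDR 0.00016), the lysosomal membrane protein LAMP2 the largest rise (0.67, limma FDR 6.3e-05), and STARD3, a sterol carrier of late endosomes, was at 5.72 and 7.06 TPM without passing. Of 5 tested genes of efflux and its receptors, 2 rose (40%) and 2 fell (40%), with a median of -0.14, and 1 fell with the highest listed transcript of each gene. NR1H2 (LXRβ) rose from 30.7 ± 0.44 to 44.8 ± 1.1 TPM (SD, n = 3 each, log2 change 0.53, limma FDR 8.2e-05), RXRB had the largest rise (0.66) and ABCG4 the largest fall (-1.18). NR1H3 (LXRα) had a mean of 0.79 TPM and ABCG1, another LXR target, was listed at 0 in all libraries, and neither was tested.

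**Figure D4:**
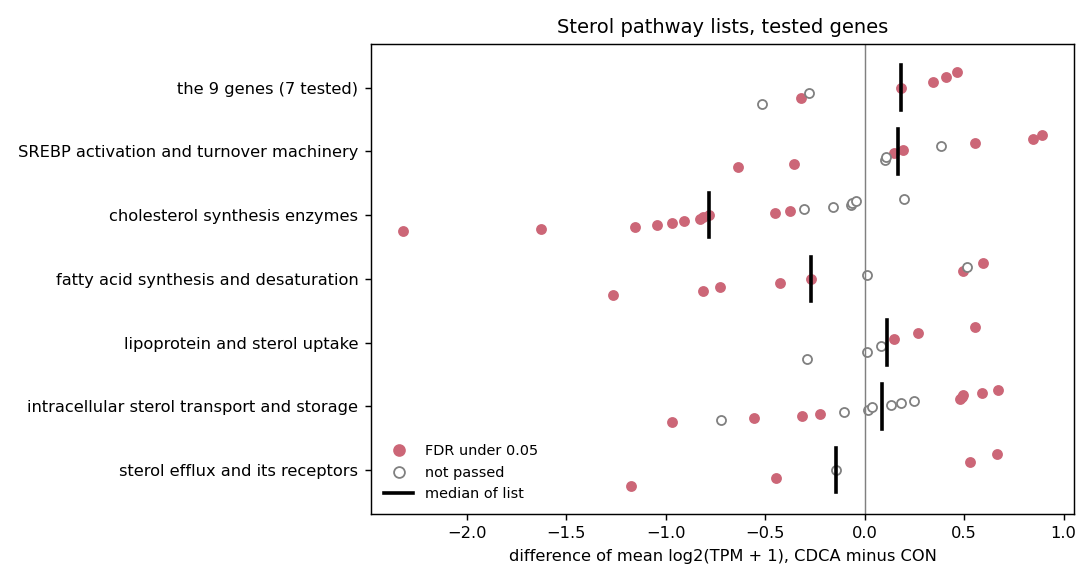
Difference of mean log2(TPM + 1), CDCA minus CON, for each tested gene of the 9 described genes and of 6 lists of the same pathways; filled points had a limma FDR under 0.05, and black bars are list medians. The cholesterol synthesis list lies furthest to the left, with a median of -0.78, while the 9 genes lie on both sides of 0.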

How the data were processed

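RNA of 3 CON and 3 CDCA libraries was sequenced on an Illumina NovaSeq instrument, quantified by the authors with RSEM and deposited as TPM, with 1 row for each of 63041 listed transcripts. The submitters' processing notes name Bowtie 0.12.2 and the mouse build mm10, while the gene IDs are those of the pig, and the annotation release is not given in the sources used here. Rows were summed per gene ID. Symbols came from the deposited table and, where blank, from a table of Ensembl IDs (782 of 17501 named IDs). Groups came from the sample titles, and the dose from the study's methods.

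The test was limma 3.58.1 with its trend option, run in R 4.3.3 on log2(TPM + 1) for genes whose mean was 1 TPM or more, and the steps were tested on simulated data. On this scale, changes of low genes come out smaller than on a linear scale. The authors used edgeR, a test for counts, which TPM values do not allow. Log2 ratios of 4 pairs were compared by exact permutation. The named genes were the 9 genes, 20 others set by role, and the largest rise and fall of each list; other genes are said to be picked later, and some named by this rule are not reported here. The members and lists were chosen with earlier results of these data known. Alternatives were a pseudocount of 0.1 TPM, no filter, 3 other scalings, the highest listed transcript, limma without the trend, the replicate number as a block and each library left out. The fit of single transcripts and the scaling to totals of 1000000 less the mtDNA-encoded mRNAs were added after seeing the data.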

Additional observations from a re-analysis of the deposited data

How the results depend on the processing

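None of the 7 tested genes of the 9 changed direction under any alternative run. The count of rises stayed at 3 or 4 and the count of genes past the log2 limit of 1 at 0. The count of falls was 0 with no filter on low values (SREBF1, limma FDR 0.053), where more genes were adjusted for, and 2 with totals without the mtDNA-encoded genes (listed total or 1000000), with median-ratio scaling and with the highest listed transcript, where INSIG1 joined SREBF1. Over the fits that each left out 1 library it was 0 to 1. NPC2 also missed the threshold with no filter (limma FDR 0.063), median-ratio scaling (0.092) and limma without the trend (0.063). Leaving the mtDNA-encoded genes out of the totals shifted the median of all tested genes by -0.13 with listed totals and by -0.05 with totals of 1000000. Relative to that median, the change of NPC2 was 0.14 as deposited and 0.11 with listed totals without them.

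The sources used here do not say whether the replicate numbers pair the groups. Correlations of same-numbered libraries' deviations from their group means were -0.035, -0.092 and -0.051. With 3 libraries per group, such values cannot show how the cultures were laid out. With the replicate block, 4 of the genes rose and 1 fell, but the fall was that of SCAP (log2 change -0.52, limma FDR 0.038) and not that of SREBF1 (-0.32, limma FDR 0.065). The replicate block also took FASN (limma FDR 0.060), RNF145 (0.054) and RNF139 (0.079) past 0.05, and left 3 rises and 1 fall in the activation and turnover list. The log2 difference of INSIG1 to INSIG2 was -0.74 with 1 TPM added to both genes, and -0.94 to -0.81 with each library left out. That of NPC1 to NPC2 stayed between 0.23 and 0.27 when a library was left out, and that of INSIG1 plus INSIG2 to SCAP between 0.58 and 1.18. That of SREBF2 to SREBF1, -2.27 to -0.37 with a library left out, rests on SREBF2 values near 0, was 0.17 with 1 TPM added, and with the highest SREBF2 transcript, at 0 in 3 libraries, it could not be computed. Without read counts, no counting error can be set beside the low values of SREBF2 and STARD4.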
